A study of Mus musculus with 6 samples.

Results

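A list of 9 genes that mark eosinophils in the mouse was followed through single-cell RNA-seq of cultured myeloid progenitors. The list was taken as given, all 9 genes are among the 27998 genes of the deposited count table, and each had at least 1 transcript in at least 1 of the 6 libraries. A gene enters the background counts given below when its mean over the libraries is at least 20 CPM (counts scaled to the same total in each library), and 4 members (Prg2, Prg3, Ear2 and Siglecf) pass that limit.

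The cells are iGMPs, granulocyte-macrophage progenitors from C57BI/6 mice that a HOXA9 protein fused to an estrogen receptor domain (ER-HOXA9) keeps in self-renewal as long as estradiol is present. All 6 cultures carry this fusion and a GFP reporter in the lysozyme locus, and grew with stem cell factor. In CAF-1 OFF, a clone with a short hairpin RNA against Chaf1b (the p60 subunit of the histone chaperone CAF-1) received 500 µM IPTG for 48 or 96 h, with estradiol kept at 150 ng/mL. In HOXA9 OFF, a clone with the inducible control vector (shCTRL) was held without estradiol for 48 or 96 h, under which such cells mature into neutrophils. Each arm has its own library at 0 h, with estradiol and without IPTG. Every group is 1 library of 1 clone, so no difference between groups could be tested, and the cells of a library are not replicates of its condition. Kept cells numbered 473 to 1510 and UMIs 3524285 to 5589486 per library, where a UMI (unique molecular identifier) marks 1 captured transcript. With every cell thinned to 1300 UMIs, Mpo, a marker of such progenitors, had a UMI at 0 h in 82.1% of the CAF-1 OFF cells and 64.0% of the HOXA9 OFF cells, and S100a8, a neutrophil gene, in 99.1% in HOXA9 OFF at 96 h. The libraries share 34 barcode sequences over 15 pairs, at most 8 in a pair. The limit on mitochondrial UMIs and genes per cell removed 66.2% and 41.7% of barcodes in the 0 h libraries of HOXA9 OFF and CAF-1 OFF, and 0.198% to 18.3% in the others.

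Eosinophils are granulocytes that leave the myeloid progenitors on a path driven by GATA1 and C/EBP factors and supported by interleukin-5. Their granules are packed with cationic proteins, among them major basic protein (Prg2) and its homologue (Prg3), a peroxidase (Epx), and ribonucleases of the Ear family, which in the mouse has many closely related copies. On their surface they carry the alpha chain of the interleukin-5 receptor (Il5ra), which pairs with the common beta chain Csf2rb, the eotaxin receptor Ccr3, which guides them into tissues, and the lectin Siglecf. Not all of these genes are private to eosinophils. Prg2 is also made by basophils, Ear2 by macrophages, and Siglecf by alveolar macrophages.

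Sequences upstream of the genes are shown because near-identical copies limit what the counts can tell apart and because the members differ in them. All are from RefSeq on GRCm38.p6, whose promoter table holds 8 of the 9 members, all but Prg2. Ear1 and Ear2 lie on chromosome 14, at chr14:43818765-43819639 and chr14:44102654-44103531. The 130 bases before the start of Ear2 occur letter for letter just upstream of Ear1 (chr14:43819642-43819771, minus strand). Ear6, at chr14:51853768-51854643, is identical to Ear2 at 124 of these 130 bases, has 6 substitutions and 19 inserted bases. Capitals in the Ear6 line mark the bases that differ from Ear2.
Ear2 (chr14:44102524-44102653, plus strand): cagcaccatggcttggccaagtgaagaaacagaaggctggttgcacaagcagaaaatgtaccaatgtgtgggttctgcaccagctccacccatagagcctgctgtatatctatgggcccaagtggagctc
Ear6 (chr14:51853616-51853764, plus strand): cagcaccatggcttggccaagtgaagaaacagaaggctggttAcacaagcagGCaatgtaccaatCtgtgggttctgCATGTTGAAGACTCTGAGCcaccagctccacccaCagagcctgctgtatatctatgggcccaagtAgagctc

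The likeness extends to the part of the transcript that the assay reads. In the GENCODE vM1 transcripts, the last 300 bases of Ear1 and Ear2 agree at 296 positions (98.7%), against 268 positions (89.3%) for Ear2 and Ear6. The split of reads between these ribonucleases, Ear1 and Ear2 above all, is therefore uncertain. Prg2 (chr2:84980461-84983632) and Prg3 (chr2:84988196-84996559) are neighbours on chromosome 2, 4563 bases apart, and agree at 63.2% of aligned coding bases.

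The letters GATAA, a core that GATA factors recognise, were searched on both strands of the 250 bases before each start. They occur in 3 of the 8 members with an entry (Prg3, Il5ra and Ccr3) and in 22.6% of all 32851 promoters of the table. Prg3 holds them at 2 places, 123 and 111 bases before its start, Il5ra 73 bases and Ccr3 29 bases before its start. TTNNGNAA, a form of the C/EBP core that was also searched on both strands and that overlaps none of these matches, occurs in 6 of the 8 (all but Epx and Il5ra) and in 36.8% of all promoters. A match describes the letters and is not a binding site. The start is the 1 that the promoter table gives for a transcript of the gene. For Prg3 and Ccr3 it lies inside the bounds that RefSeq gives for the gene over all its transcripts, for Ccr3 well inside them. Capitals below mark GATAA or its reverse complement TTATC.
Prg3 (chr2:84988085-84988214, plus strand): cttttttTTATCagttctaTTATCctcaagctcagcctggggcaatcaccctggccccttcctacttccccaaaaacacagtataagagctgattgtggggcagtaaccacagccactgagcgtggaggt
Il5ra (chr6:106749038-106749167, minus strand): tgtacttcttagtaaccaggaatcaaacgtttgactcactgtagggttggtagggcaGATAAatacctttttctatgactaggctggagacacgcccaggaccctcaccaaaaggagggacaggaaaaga
Ccr3 (chr9:124021841-124021970, plus strand): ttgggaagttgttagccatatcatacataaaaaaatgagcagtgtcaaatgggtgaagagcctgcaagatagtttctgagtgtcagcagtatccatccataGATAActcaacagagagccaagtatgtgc

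Prg2, Prg3, Epx and Ear6 reached their highest levels in HOXA9 OFF at 48 h, and the members did not follow each other over time. Prg2, Prg3, Il5ra and Siglecf had UMIs in all 6 libraries. Epx, Ear1, Ear2 and Ear6 were found almost only in HOXA9 OFF, with Epx and Ear6 highest at 48 h, and Ccr3 was highest in HOXA9 OFF at 96 h. Levels are given in CPM (counts per 1000000 UMIs of the kept cells), folds are ratios of CPM, and brackets hold 95% intervals. Intervals and floors cover counting error only, not the spread over cells or the difference that another culture or library would bring. Where few cells hold most UMIs of a gene, the intervals are too narrow.

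Prg2, given here and below in the order 0, 48 and 96 h, stood at 141, 269.6 and 879 CPM in the libraries of CAF-1 OFF. Those of HOXA9 OFF held it at 876, 16629 and 3021 CPM. The library at 48 h of HOXA9 OFF was the highest of the 6, 19.0-fold [18.4 to 19.6] above its own 0 h library, and at 96 h Prg2 was 3.45-fold [3.32 to 3.58] above it. In CAF-1 OFF Prg2 was 1.91-fold [1.74 to 2.11] above 0 h at 48 h and 6.23-fold [5.72 to 6.80] at 96 h. The 0 h libraries of the arms lay 6.21-fold [5.70 to 6.79] apart, higher in HOXA9 OFF, a difference of the same size as that over 96 h in CAF-1 OFF.

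Those 0 h levels rested on very few cells. For HOXA9 OFF at 0 h, 5 of 473 cells held 3199 of the 3670 Prg2 UMIs (87.2%), and in CAF-1 OFF at 0 h 5 of 647 cells held 553 of 594 UMIs (93.1%). Without the 5 cells of each library with most Prg2 UMIs, an alternative chosen after these values were seen, the CAF-1 OFF library at 0 h stood at 9.79 CPM and that of HOXA9 OFF at 113 CPM. The fold over 0 h then became 137 [125 to 151] at 48 h and 16.6 [15.1 to 18.2] at 96 h in HOXA9 OFF, and 8.04 [5.83 to 11.4] at 48 h and 51.8 [38.1 to 72.3] at 96 h in CAF-1 OFF. Prg2 was higher than at 0 h in every case, but the size of its fold over 0 h depended on these few cells. It also depended on the limit on mitochondrial UMIs in CAF-1 OFF. With a limit of 5% in place of 10%, the log2 ratio to 0 h (after adding 10 CPM to both) was 1.93 in place of 0.89 at 48 h and 4.82 in place of 2.56 at 96 h.

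Prg3, the homologue of major basic protein, parted from Prg2 at 96 h. The CAF-1 OFF libraries held it at 74.7, 189 and 362 CPM, and the HOXA9 OFF libraries at 593, 2522 and 149 CPM. In HOXA9 OFF it was at 48 h 4.25-fold [4.07 to 4.44] above 0 h, while at 96 h it was 3.99-fold [3.63 to 4.39] below 0 h, where Prg2 was above it. In CAF-1 OFF it was 2.53-fold [2.23 to 2.88] above 0 h at 48 h and 4.84-fold [4.30 to 5.47] at 96 h. The 0 h libraries differed by 7.93-fold [7.05 to 8.95], again higher in HOXA9 OFF. Without the 5 cells of each library with most Prg3 UMIs, an alternative also chosen after the values were seen, the ratio of 96 h to 0 h in HOXA9 OFF was 0.215 [0.191 to 0.242], in the same direction, and that of 48 h to 0 h was 5.43 [5.17 to 5.71]. For CAF-1 OFF the ratios to 0 h became 4.77 [3.93 to 5.82] at 48 h and 10.0 [8.34 to 12.2] at 96 h.

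Epx, the eosinophil peroxidase, had 2, 1 and 0 UMIs over the times of CAF-1 OFF, and 0, 238 and 6 UMIs over those of HOXA9 OFF. At 48 h of HOXA9 OFF this is 44.8 CPM [39.3 to 50.9] and at 96 h 1.70 CPM [0.625 to 3.71]. Taking a floor of 3 UMIs for the library at 0 h, the level at 48 h was at least 62.6-fold higher. From 48 to 96 h it was 26.3-fold [11.9 to 72.5] lower, so the peroxidase was all but limited to 1 library.

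The ribonucleases were at or near 0 outside HOXA9 OFF at 48 and 96 h. Ear2 had 0, 1 and 0 UMIs in CAF-1 OFF and 0, 384 and 266 UMIs in HOXA9 OFF. This is at least 101-fold higher at 48 h and at least 105-fold higher at 96 h than at 0 h against the same floor per library. Its levels at 48 h (72.3 CPM) and 96 h (75.5 CPM) did not differ beyond counting error, with a ratio of 1.04 [0.889 to 1.22]. Ear6 had 24 UMIs at 48 h and 1 UMI at 96 h of HOXA9 OFF and 0 in the other 4 libraries, at least 6.31-fold higher at 48 h than at 0 h. Ear1 had 4 and 5 UMIs at 48 and 96 h of HOXA9 OFF and 0 elsewhere, which can hold reads of Ear2. Of 11 further genes listed for the family, 4 are in the table under the symbols used, and they had 1 UMI in all, of Rnase2a in HOXA9 OFF at 48 h.

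The receptor genes were low throughout. Il5ra had 5, 6 and 3 UMIs in CAF-1 OFF and 2, 24 and 8 UMIs in HOXA9 OFF, and the ratio of 48 h to 0 h in HOXA9 OFF was 9.47 [2.35 to 82.7]. Ccr3 had 0, 1 and 3 UMIs in CAF-1 OFF and 1, 2 and 48 UMIs in HOXA9 OFF, and the ratio of 96 h to 48 h in HOXA9 OFF was 36.2 [9.48 to 307]. The alpha chain of the interleukin-5 receptor thus had most UMIs at 48 h and the eotaxin receptor at 96 h. Siglecf stood at 11.2, 21.3 and 23.7 CPM over the CAF-1 OFF times, and the HOXA9 OFF libraries held it at 11.7, 61.2 and 37.5 CPM. Its 0 h libraries were within counting error of each other (ratio 1.05 [0.688 to 1.60]), and in HOXA9 OFF it was 5.23-fold [3.87 to 7.22] above 0 h at 48 h and 3.20-fold [2.29 to 4.54] at 96 h. In CAF-1 OFF the folds were 1.91 [1.35 to 2.74] and 2.13 [1.51 to 3.04].

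**Figure D1:**
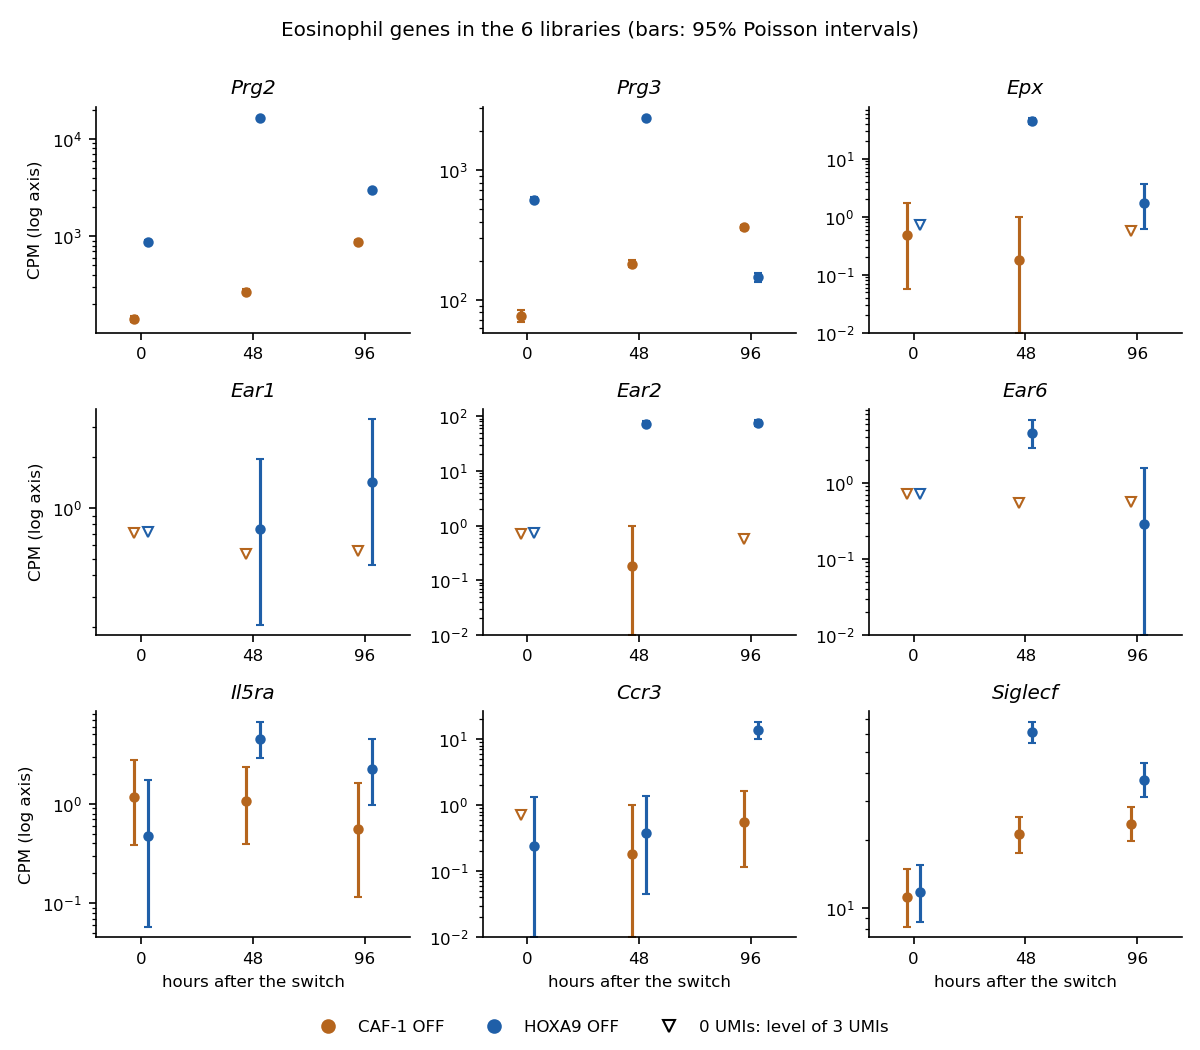
Level of each of the 9 genes in CPM (vertical axes, log scale, each gene with its own range) at 0, 48 and 96 h in CAF-1 OFF and HOXA9 OFF, 1 library per point, with bars for 95% Poisson intervals of counting error (cut at the bottom of the axis where they reach lower) and open triangles at the level of 3 UMIs where a library had 0. Prg2, Prg3, Epx, Ear6, Il5ra and Siglecf are highest in HOXA9 OFF at 48 h, and Ccr3 in HOXA9 OFF at 96 h.

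On a log2 scale after adding 10 CPM to both libraries, which understates low genes, a gene was counted when it was at least 2-fold higher or lower than in its 0 h library. In CAF-1 OFF at 48 h, 1 of the 9 members (Prg3) was counted as higher, where 2.76% of the 4789 genes that pass the mean of 20 CPM were (5 members lie below that mean), and 0 as lower, where 0.0418% were. At 96 h 2 members (Prg2 and Prg3) were higher, against 5.22% of genes, and 0 lower, against 0.856%. At 48 h of HOXA9 OFF 5 members (Prg2, Prg3, Epx, Ear2 and Siglecf) were higher, against 13.0% of genes, and 0 lower, against 19.6%. At 96 h 4 members (Prg2, Ear2, Ccr3 and Siglecf) were higher, against 18.1% of genes, and Prg3 alone was lower, against 39.8%. Between the 0 h libraries 2 members, Prg2 and Prg3, were higher in HOXA9 OFF, where 0.752% of genes were. The median log2 ratio of the 9 members was 1.71 at 48 h and 0.23 at 96 h in HOXA9 OFF, beside 0 and -0.03 over all genes with a UMI, and 0.03 and 0 in CAF-1 OFF, beside 0.02 and 0.

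Under the library sums lay a spread over cells that was wider for Prg2 than for any other gene in these libraries. In cells thinned to equal depth, Prg2 had the highest ratio of variance to mean of all genes with a UMI in each of the 6 libraries. The ratio ran from 44.3 in CAF-1 OFF at 48 h to 163 in HOXA9 OFF at 48 h, where a gene at the same mean in every cell would be near 1. Prg3 came second in the 3 CAF-1 OFF libraries and at places 4, 10 and 20 in HOXA9 OFF at 0, 48 and 96 h, with ratios of 6.38 to 15.8 over the 6 libraries. Siglecf stayed close to 1, with ratios of 0.964 to 1.11 and at most 2 UMIs in a thinned cell.

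A cell is called Prg2-rich here when Prg2 takes at least 100 of every 10000 of its UMIs, which is a range on a scale and not a cell type. At 0, 48 and 96 h CAF-1 OFF had 3, 6 and 22 such cells, and HOXA9 OFF had 5, 223 and 47. Between 50 and 200 per 10000, close to the limit, lay 22 cells in CAF-1 OFF at 96 h and 52 and 47 cells in HOXA9 OFF at 48 and 96 h. The Prg2-rich cells of HOXA9 OFF at 48 h were 15.9% of the kept cells and held 95.9% of the Prg2 UMIs, and at 96 h they were 3.11% and held 90.1%. The cell with most Prg2 had 1467 UMIs of it, in HOXA9 OFF at 48 h. The median depth of the Prg2-rich cells was 3672 UMIs at 48 h and 3003 UMIs at 96 h, where cells with under 10 Prg2 UMIs per 10000, called Prg2-low here, had 3497 and 2020 UMIs.

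**Figure D2:**
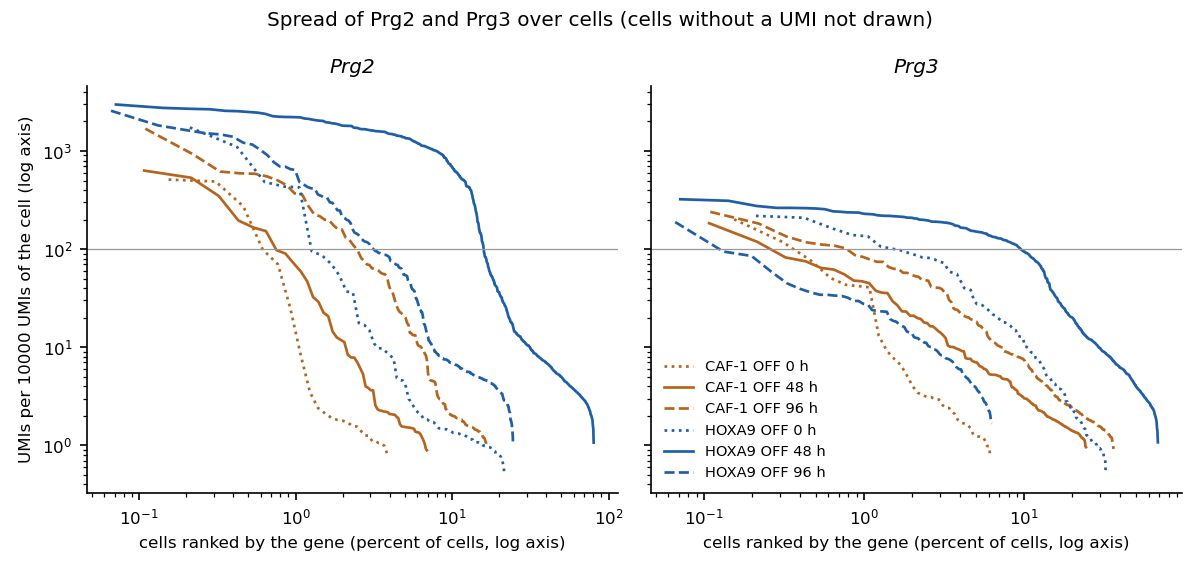
UMIs of Prg2 and of Prg3 per 10000 UMIs of the cell (vertical axes, log scale) against the percent of cells at or above that level (horizontal axes, log scale), 1 line per library, with cells without a UMI left out and a grey line at 100 per 10000. For Prg2 the line of HOXA9 OFF at 48 h stays above the grey line for 15.9% of cells, and the 5 others cross it at 3.11% of cells or fewer.

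A low Prg2 count in a cell was not read as expression. Prg2 had a UMI at 48 h of HOXA9 OFF in 1127 of 1404 cells (80.3%). Cells with at least 10 S100a8 UMIs per 10000, called S100a8-rich here, were taken for comparison. Prg2 had a UMI in 396 of these 530 cells (74.7%, median depth 3206.5 UMIs). Whether these cells make Prg2 or hold it as free RNA was not tested. In the Prg2-low cells the share was 71.2%. These cells were chosen for low Prg2, which lowers this share, so it was not compared with that of the S100a8-rich cells. Prg3 had a UMI in 52.6% of the S100a8-rich cells, 59.2% of the Prg2-low cells and 99.1% of the Prg2-rich cells. Epx had a UMI in 1 of the S100a8-rich cells (0.189%) and in 70 of the 223 Prg2-rich cells (31.4%). Ear2 had a UMI in 22.3% of the S100a8-rich and 19.3% of the Prg2-rich cells, so by this share it did not mark the latter.

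The other members were divided over these cells in different ways. At 48 h of HOXA9 OFF, 230 of 238 Epx UMIs (96.6%), 22 of 24 Ear6 UMIs (91.7%) and 20 of 24 Il5ra UMIs (83.3%) lay in the Prg2-rich cells. For Prg3 the share was 75.9%, for Siglecf 30.2% and for Ear2 24.5%. Epx stood at 284 CPM in the Prg2-rich and 1.09 CPM in the Prg2-low cells, 261-fold [101 to 967] apart. Siglecf stood at 121 and 45.4 CPM, 2.67-fold [2.06 to 3.44] apart, and Ear2 at 116 and 70.7 CPM, 1.64-fold [1.28 to 2.09] apart. Epx, Ear6 and Il5ra thus went with high Prg2 far more than Siglecf and Ear2 did.

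At 96 h of HOXA9 OFF Prg3, Ccr3 and Siglecf went with Prg2. Prg3 was 95.4-fold [74.8 to 123] higher in the Prg2-rich than in the Prg2-low cells. Ccr3 had 20 of its 48 UMIs in the 47 Prg2-rich cells, 23 in the 66 cells with 10 to 100 Prg2 UMIs per 10000, and 5 in the 1397 Prg2-low cells. Its level was 137 CPM, 157 CPM and 1.55 CPM in these ranges. Siglecf stood at 178, 136 and 26.6 CPM, and was 6.70-fold [4.15 to 10.5] higher in the Prg2-rich than in the Prg2-low cells. The Prg2-low cells were 1397 of the 1510 kept cells, and held 255 of the 266 Ear2 UMIs (95.9%) and 7 of the 8 Il5ra UMIs. The ratio of Ear2 in the Prg2-rich to the Prg2-low cells was 0.608 [0.242 to 1.27], within counting error. In the cells with 10 to 100 Prg2 UMIs per 10000 the ratio was 0.345 [0.0934 to 0.895]. Cells with at least 10 S100a8 UMIs per 10000 were 98.5% of this library and held 92.6% of its Prg2 UMIs, so they give no level for comparison there.

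The Prg2-rich cells of CAF-1 OFF held little of the further members. At 0 h 2 of the 3 such cells had an Epx UMI, and at 48 h 1 of 6 had, and no Epx UMI of these libraries lay in another cell. Siglecf had a UMI in 3 of the 6 cells at 48 h, and Ear1, Ear2, Ear6, Il5ra and Ccr3 had 0 UMIs in these cells at both times. At 96 h the 22 such cells held 109747 UMIs, of which 3901 were Prg2 and 748 Prg3. Epx, Ear1, Ear2, Ear6, Ccr3 and Siglecf had 0 UMIs in them and Il5ra had 1. For Epx, 0 UMIs allow a level of up to 33.6 CPM, which is below the 284 CPM of the Prg2-rich cells of HOXA9 OFF at 48 h. For Siglecf the same limit lies above the 23.4 CPM of the Prg2-low cells of its own library, so a difference was not detectable at this depth.

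Prg3 per Prg2 differed between libraries inside the Prg2-rich cells too. For every 100 Prg2 UMIs these cells held 29.7 [24.2 to 36.2] Prg3 UMIs in CAF-1 OFF at 0 h, 24.7 [21.6 to 28.2] at 48 h and 19.2 [17.7 to 20.7] at 96 h. In HOXA9 OFF the value was 16.3 [14.8 to 17.9] at 0 h, 12.0 [11.8 to 12.3] at 48 h and 3.68 [3.30 to 4.09] at 96 h. It was lowest at the last time in both arms. These cells were chosen for high Prg2, and at 0 h they numbered only 3 and 5. Within HOXA9 OFF at 48 h the value also fell with rising Prg2. It was 27.4 at 10 to 29, 19.3 at 30 to 99 and 10.9 at 100 or more Prg2 UMIs after thinning. The choice by Prg2 therefore enters the comparison of libraries. Cells with 30 to 99 held 29.7 [24.2 to 36.2], 24.6 [21.1 to 28.6] and 22.2 [19.9 to 24.8] in CAF-1 OFF. Those of HOXA9 OFF held 23.2 [20.2 to 26.6], 19.3 [18.4 to 20.3] and 2.68 [2.02 to 3.48]. In the Prg2-low cells, which were chosen for low Prg2, the value was higher in each library. It was 141 [132 to 152] in HOXA9 OFF at 48 h and 27.2 [21.1 to 34.9] at 96 h. At 0 h of HOXA9 OFF the Prg2-low cells held 1428 of the 2485 Prg3 UMIs. What low Prg3 counts reflect was not tested.

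Co-detection was counted over thinned cells, beside the number of cells that the product of the single shares would give. Prg2 and Prg3 were found together in 451 cells of HOXA9 OFF at 48 h (product 355), in 54 cells at 96 h (product 11.4), and in 54 cells of CAF-1 OFF at 96 h (product 14.2). All 38 thinned cells with Epx at 48 h of HOXA9 OFF also had Prg2 and Prg3, where the products gave 21.0 and 17.8 cells. Epx and Ear6 shared 3 of the 5 cells with Ear6 (product 0.138). The granule proteins were thus found in the same cells more often than their shares alone would give.

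Ear2 stood apart from that pattern. In HOXA9 OFF, Il5ra at 48 h and Ccr3 at 96 h were found with Prg2 in more cells than the product. Il5ra at 96 h and Ccr3 at 48 h had only 4 and 1 thinned cells, too few to compare. Ear2 was found with Prg2 in 60 of its 128 cells at 48 h (product 70.7) and in 15 of its 131 cells at 96 h (product 23.3), and with Prg3 in 0 cells at 96 h (product 6.09). Il5ra was found with Prg2 in 8 of its 9 cells at 48 h (product 4.97) and with Prg3 in 8 (product 4.21). Ccr3 was found with Prg2 in 18 of its 19 cells at 96 h (product 3.38) and with Siglecf in 5 (product 0.718). Siglecf and Prg2 shared 73 cells at 48 h of HOXA9 OFF (product 67.4), 26 cells at 96 h (product 9.26) and 4 cells at 96 h of CAF-1 OFF (product 3.11). Low Prg2 and Prg3 counts, which in HOXA9 OFF at 48 h are also seen in S100a8-rich cells, enter these numbers, and their part in them was not tested.

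**Figure D3:**
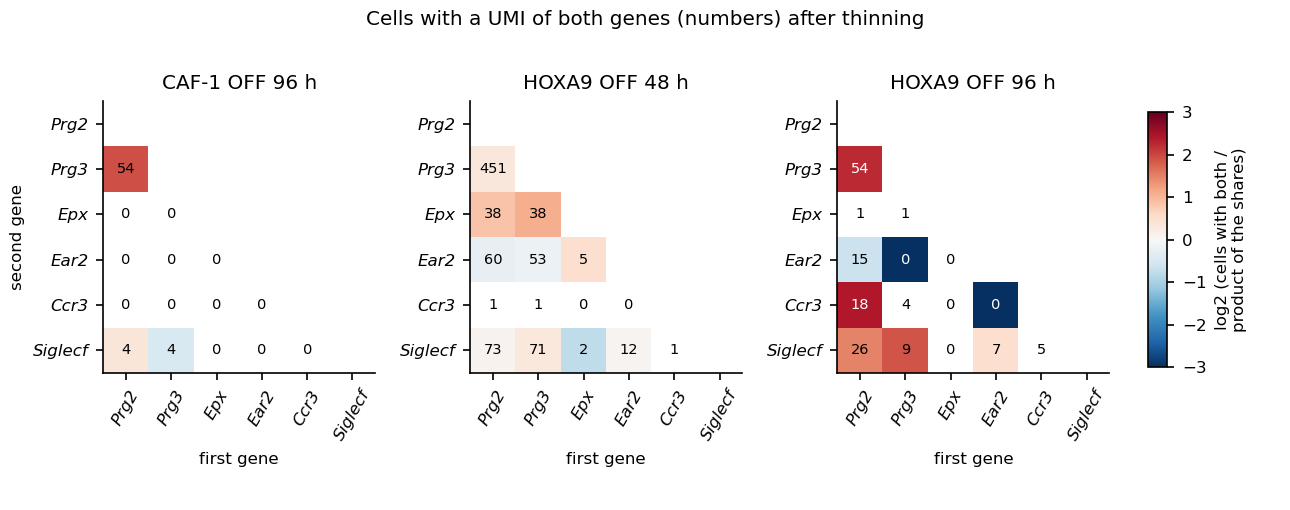
Number of thinned cells with a UMI of both genes of a pair (numbers in the squares) in 3 libraries, coloured by the log2 ratio of that number to the product of the single shares, left white where the product gave under 1 cell and given the lowest colour where 0 cells had both. Prg2 and Prg3 share 54 cells in CAF-1 OFF at 96 h and 451 and 54 cells in HOXA9 OFF at 48 and 96 h, while Prg3 and Ear2 share 0 at 96 h of HOXA9 OFF.

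Over rising Prg2 counts in thinned cells, the share with Epx rose at 48 h of HOXA9 OFF. For Ccr3 at 96 h the higher ranges held few cells, and a trend was not tested. The share of cells with Epx in HOXA9 OFF at 48 h was 0% at up to 9 Prg2 UMIs, 3.03% at 10 to 29, 11.7% at 30 to 99 and 23.1% at 100 or more. The share with Ccr3 in HOXA9 OFF at 96 h was 24% at 3 to 9 Prg2 UMIs, 25.8% at 10 to 29, 13.3% at 30 to 99 and 0% at 100 or more, over 25, 31, 15 and 11 cells. Elane, the elastase of neutrophil primary granules, had a UMI in 24.4% of cells without Prg2 and 1.54% of cells at 100 or more in HOXA9 OFF at 48 h. In CAF-1 OFF at 96 h the share with Elane was 58.9% without Prg2 and 66.7% at 30 to 99, the latter over 9 cells.

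**Figure D4:**
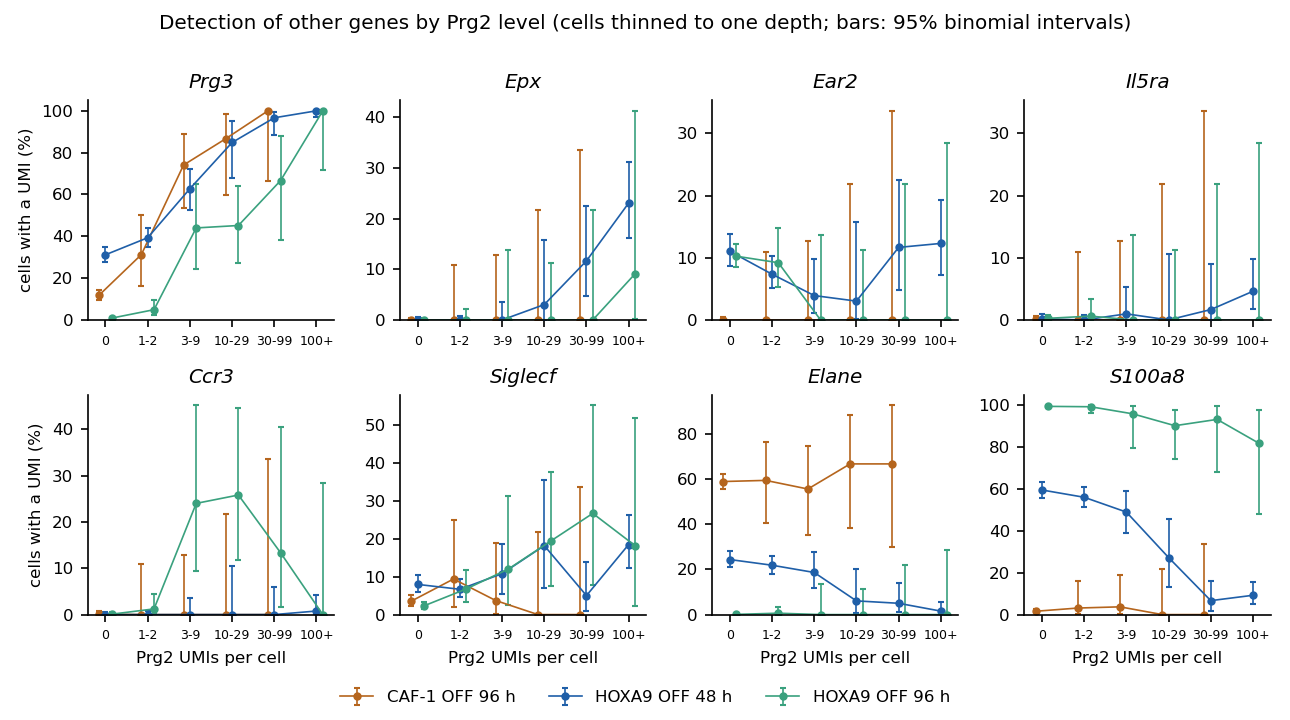
Percent of thinned cells with a UMI of each of 8 genes (vertical axes) over ranges of Prg2 UMIs per cell (horizontal axes) in HOXA9 OFF at 48 and 96 h and in CAF-1 OFF at 96 h, with 95% binomial bars for counting error and ranges of under 5 cells left out. Epx reaches 23.1% at the highest range in HOXA9 OFF at 48 h, where Elane is at 1.54%, and Ccr3 is highest in HOXA9 OFF at 96 h at 10 to 29 Prg2 UMIs, at 25.8%.

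Genes of neighbouring lineages differed between Prg2-rich and Prg2-low cells, and which genes did was not the same in the arms. At 48 h of HOXA9 OFF Elane was 26.1-fold [16.9 to 42.8] lower in the Prg2-rich cells, Prtn3, another primary granule protease, 9.60-fold [8.38 to 11.1] lower and S100a8 36.9-fold [30.6 to 44.7] lower. Over single cells the median of Prtn3 was 0 in the Prg2-rich and 18.3 UMIs per 10000 in the Prg2-low cells. At 96 h the median of S100a8 was 20.2 and 823 UMIs per 10000, and Mpo, Elane and Prtn3 had 0 UMIs in the Prg2-rich cells. In CAF-1 OFF at 96 h the Prg2-rich cells held these genes, with medians of 9.79 and 7.49 UMIs per 10000 for Elane, 65.9 and 56.6 for Ctsg and 11.8 and 22.9 for Mpo in Prg2-rich and Prg2-low cells. The medians of Pf4, a platelet chemokine, were 21.7 and 20.7 there, and those of Cpa3, a protease of mast cells and basophils, 36.9 and 25.6. Other genes of that library lay further apart. Prss34, a basophil protease, stood at 91.1 CPM [43.7 to 168] in the Prg2-rich cells and 3.14 CPM [1.79 to 5.10] in the Prg2-low cells, and was 9.08-fold [3.16 to 29.5] higher in the Prg2-rich cells of HOXA9 OFF at 48 h. Within the CAF-1 OFF library at 96 h, Hdc, the enzyme that makes histamine, was 3.87-fold [1.72 to 7.62] higher on 9 UMIs. Ccr2, a chemokine receptor of monocytes, was 5.74-fold [2.23 to 21.1] lower on 4 UMIs.

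Factors of eosinophil development were uneven over the same cells. Gata1, which the eosinophil lineage needs, stood at 40.8 CPM in the Prg2-rich and 1.09 CPM in the Prg2-low cells of HOXA9 OFF at 48 h, 37.5-fold [13.3 to 146] apart. At 96 h it stood at 61.7 and 1.55 CPM, 39.9-fold [12.0 to 152] apart, and in CAF-1 OFF at 96 h at 91.1 and 9.42 CPM, 9.67-fold [4.36 to 19.4] apart. These rest on 33, 9 and 10 Gata1 UMIs in the Prg2-rich cells. Cebpe, which drives the making of secondary granules in neutrophils and eosinophils, was 1.81-fold [1.67 to 1.96], 2.48-fold [2.14 to 2.87] and 1.68-fold [1.41 to 1.98] higher in the Prg2-rich cells of the same libraries. Irf8, a factor of the monocyte path, had 1 UMI in the Prg2-rich and 275 in the Prg2-low cells of HOXA9 OFF at 48 h. Other listed factors went both ways in that library. Cebpa was 3.08-fold [1.63 to 6.57] and Id2 3.28-fold [2.54 to 4.29] lower in the Prg2-rich cells, while Gata2 was 2.66-fold [1.69 to 4.14] higher. At 96 h of HOXA9 OFF Id2 was instead 1.44-fold [1.16 to 1.76] higher.

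Csf2rb, the partner chain of Il5ra, was uneven at 96 h of HOXA9 OFF in the way Ccr3 was. It stood at 384 CPM in the Prg2-rich cells, 743 CPM in those with 10 to 100 Prg2 UMIs per 10000 and 60.6 CPM in the Prg2-low cells. At 48 h the levels were 125, 94.6 and 88.9 CPM, and in CAF-1 OFF at 96 h 137, 127 and 111 CPM. Alox15, a lipoxygenase found in eosinophils, was 10.5-fold [7.34 to 15.1] higher in the Prg2-rich than in the Prg2-low cells at 48 h and 196-fold [84.2 to 557] higher at 96 h of HOXA9 OFF. Genes shared with mast cells, basophils or platelets went with Prg2 at 48 h as well, with Cpa3 6.71-fold [6.07 to 7.41] higher, Hdc 5.77-fold [4.51 to 7.41] higher and Itga2b, a platelet integrin, 11.1-fold [7.55 to 16.7] higher. Il4, a cytokine of basophils and eosinophils, was 12.1-fold [4.50 to 37.8] higher on 16 UMIs. Mcpt8, a basophil protease, was 4.29-fold [1.61 to 16.1] lower on 4 UMIs. Over the thinned cells of this library, 1 cell held 23 of the 37 Mcpt8 UMIs.

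Over whole libraries, 5 of 8 genes of interleukin-5 receptor signalling (Csf2rb, Csf2rb2, Csf2ra, Jak2 and Lyn) stood at or above 2-fold of the 0 h level in HOXA9 OFF at 48 h and again at 96 h, where 13.0% and 18.1% of the 4789 genes did, with median log2 ratios of 1.16 and 1.33 over the list. In CAF-1 OFF 1 was at 48 h (Csf2rb) and 3 were at 96 h (with Csf2rb2 and Il3ra), where 2.76% and 5.22% of genes were, with medians of 0.18 and 0.49. Of 11 transcription factors of eosinophil development 6 were higher at 48 h of HOXA9 OFF (Cebpe, Spi1, Irf8, Xbp1, Id1 and Id2). At 96 h 5 were (Cebpe, Spi1, Id1, Id2 and Trib1), with Gata2 lower, and Gata1 was counted at neither time. In CAF-1 OFF 3 were higher at 48 h (Cebpe, Xbp1 and Id1) and 5 at 96 h (with Gata1 and Id2). The counts are to be read against the same shares of genes. Cebpe was in each of these counts, with 67.4, 510.1 and 785 CPM over the CAF-1 OFF times and 82.3, 704 and 625 CPM over those of HOXA9 OFF. Of 12 further surface and effector genes 4 and 3 were higher in HOXA9 OFF and 0 and 2 in CAF-1 OFF, with the same shares of all genes beside them, and Ptgdr2 and Cd24a had 0 UMIs throughout. Such counts are over all cells of a culture, and a gene in them need not be high in the cells rich in Prg2. Lyn was 2.76-fold [1.89 to 4.19] lower in the Prg2-rich than in the Prg2-low cells of HOXA9 OFF at 48 h.

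Markers of other cell types differed between the same libraries, and their part in the members' levels was not tested. Of the 4789 genes, 13.0% and 18.1% were higher and 19.6% and 39.8% lower in HOXA9 OFF at 48 and 96 h. In CAF-1 OFF 2.76% and 5.22% were higher. The counts below are to be read against these shares, and the 2 mast cell or basophil genes lower at 48 h are near theirs. The 8 genes of later neutrophil maturation summed to 28.2, 10308 and 143674 CPM in HOXA9 OFF, with 7 and 8 of 8 higher, and to 33.0, 715 and 1182 CPM in CAF-1 OFF, with 3 higher at each time. The 11 mast cell or basophil genes summed to 343, 1504 and 4062 CPM in CAF-1 OFF, with Cpa3 and Mcpt8 higher, and to 875, 519.9 and 80.9 CPM in HOXA9 OFF, with 2 and 6 lower and Mcpt4 and Tpsab1 at 0 in every library. The 8 monocyte or macrophage genes summed to 356, 270.4 and 491 CPM in HOXA9 OFF, with Csf1r, Cd68 and Ms4a6c higher and Ccr2 lower at both times, and Marco was at 0 in every library.

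Genes outside the list were ranked by how closely they followed a member over thinned cells, as Pearson's r of log-scaled UMI counts. These are descriptions over cells of 1 library, which share its free RNA and its depth. In HOXA9 OFF at 48 h (1376 cells) Prg2 and Prg3 had an r of 0.82, and the genes closest to Prg2 were Cpa3 (0.38), Rpl9 (0.34), the cystine transporter Slc7a11 (0.33), the granule membrane protein Cd63 (0.32) and the vesicle amine transporter Slc18a2 (0.26). Epx followed Prg2 with an r of 0.37, and outside the list Fam46a (0.20), Cpa3 (0.19) and Hdc (0.17) came closest to it. Ear2 had an r of 0.03 with Prg2.

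In HOXA9 OFF at 96 h Prg2 and Prg3 had an r of 0.69, and the closest genes to Prg2 were Rpl9 (0.43), Calm2 (0.43) and Camk1 (0.42), followed by ribosomal protein genes in the other 7 places of the top 10. Ccr3 followed Prg2 with an r of 0.26. In CAF-1 OFF at 96 h (902 cells) Prg2 and Prg3 had an r of 0.69, and another set came first for Prg2, namely Anxa1 (0.25), Gpx1 (0.20), Tmed3 (0.18), Tyrobp (0.18) and Cd63 (0.18). Cd63 and Slc7a11 were in the top 10 for Prg2 both there and in HOXA9 OFF at 48 h.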

How the data were processed

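Single cells of 6 cultures were captured with the 10x Chromium 3′ kit (version 2 chemistry). Per the labels, the processing used Cell Ranger 3.0.1, Scanpy 1.4.6 and Seurat 3.0.1 with the mouse build mm10. The authors deposited raw UMI counts per gene and cell, 27998 genes by 7821 barcodes, and the suffix of each barcode names its library in the labels. Barcodes with 200 to 6000 genes and at most 10% mitochondrial UMIs were kept (5872, with 1949 removed), and the 131 cells that Scrublet called as doublets stayed in, except in an alternative.

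UMIs were summed per library and scaled to CPM (Python 3.11.15, numpy 2.4.6, pandas 2.3.3, Scanpy 1.11.5). Intervals are exact 95% Poisson intervals for levels and Clopper-Pearson intervals for shares and folds (scipy 1.17.1), with a floor of 3 UMIs for a library at 0. With 1 library per group no p-value was computed. Log2 ratios used a pseudocount of 10 CPM, and a gene counted from 2-fold on. For shares of cells, co-detection and r, each cell was thinned at random (seed 1) to 1300 UMIs, which left 5666 cells. Ranges of Prg2 and S100a8 per 10000 UMIs used cells before thinning, and were set after their values were seen. The counting and co-detection steps were tested on simulated data. The alternatives were other pseudocounts, scalings (edgeR 4.0.16 TMM factors in R 4.3.3, median-of-ratios factors), mitochondrial limits, fold sizes, depths and seeds, and doublet removal.

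The members, gene lists and tests were chosen with earlier results of these data known. Genes named beyond the members are those of the listed marker and pathway genes and the 10 with the highest r with Prg2 or Epx in a library, among genes with a UMI in at least 5% of thinned cells. Ranks over the 6 library levels were computed and are not reported here.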

Additional observations from a re-analysis of the deposited data

Results flagged for a closer look

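Prg3 differed from 0 h in opposite directions in the arms at 96 h. Its log2 ratio to 0 h, after adding 10 CPM, was 2.13 for CAF-1 OFF, against -1.93 for HOXA9 OFF. With 1 library at each point the difference was not tested.

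Some barcodes were left out by the limits on mitochondrial UMIs and genes per cell. In 3 of the 4 later libraries they held some eosinophil transcripts above the level of such barcodes at 0 h. At 48 h of HOXA9 OFF the 193 removed barcodes held Prg2 at 10636 CPM, Prg3 at 2002 CPM, Epx at 24.2 CPM, Ear2 at 29.02 CPM and Siglecf at 48.4 CPM. In CAF-1 OFF at 96 h the 155 removed barcodes held Prg2 at 253 CPM and Siglecf at 52.9 CPM. At 96 h of HOXA9 OFF the 3 removed barcodes, with 4744 UMIs in all, held Prg2 at 49326 CPM and Siglecf at 422 CPM, the latter on 2 UMIs. At 0 h the removed barcodes of CAF-1 OFF held Prg2 at 53.1 CPM and those of HOXA9 OFF at 358 CPM. The 208 removed barcodes of CAF-1 OFF at 48 h held it at 28.8 CPM, not above 0 h.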

How the results depend on the processing

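Of 728 values computed with other settings, 566 stayed within the counting error or within 1.5 times of the value reported, 162 moved further, and 0 turned a called direction. Only a log2 ratio past 2-fold has a called direction. Many of the values are shares of cells or counts of genes and could not turn. The log2 ratio of Prg2 to 0 h was, in the order CAF-1 OFF at 48 and 96 h and HOXA9 OFF at 48 and 96 h, 0.89, 2.56, 4.23 and 1.77. A mitochondrial limit of 5% gave 1.93, 4.82, 4.45 and 1.22, and leaving out the 5 cells with most Prg2, an alternative chosen after seeing the data, gave 2.16, 4.71, 6.98 and 3.94. For HOXA9 OFF at 48 and 96 h, TMM factors gave 4.53 and 2.26, and factors from the median of ratios 4.47 and 2.34. Leaving mitochondrial genes and ribosomal proteins out of the total gave 1.35 at 96 h of HOXA9 OFF, and a pseudocount of 50 CPM gave 4.17 at 48 h of HOXA9 OFF and 2.28 at 96 h of CAF-1 OFF. These scalings moved the median of all genes by 0.25 and 0.39 (TMM), 0.19 and 0.45 (median of ratios), -0.40 (that total, HOXA9 OFF at 96 h) and 0.16 (50 CPM, HOXA9 OFF at 96 h) on the log2 scale.

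The number of members at least 2-fold higher in CAF-1 OFF at 48 h was 1, against 0 with a pseudocount of 50 CPM, 0 at 4-fold and 2 at 1.5-fold. In HOXA9 OFF it was 5 at 48 h, against 3 with a pseudocount of 50 CPM, and 4 at 96 h, against 7 with 1 CPM, 2 with 50 CPM and 1 at 4-fold, where the 1 lower member became 0. Over every gene with a UMI, the background shares were 1.13% to 9.16% higher and 0.0263% to 16.2% lower.

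Cells with both Prg2 and Epx were 2.76% in HOXA9 OFF at 48 h, 4.22% at double depth, 5.41% without thinning and 1.02% from 2 UMIs on. At 96 h they were 0.0727%, 0.469% at double depth and 0% from 2 UMIs on, and in CAF-1 OFF at 0 h 0.158%, with 0% under another seed and 0% from 2 UMIs on. No paired analysis was possible because each group is 1 library and no test was made. Il5ra, Ear1, Ear6 and Ccr3 rest on at most 48 UMIs in a library. Free RNA, whose level was not measured, limits what a low Prg2 or Prg3 count in a cell can show.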
